A study of Mus musculus with 4 samples.

Results

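The 10 genes described here belong to the Notch pathway: the receptors Notch1, Notch2 and Notch3, the ligands Dll1, Dll3 and Jag1, the receptor-modifying enzyme Lfng, and the target genes Hes1, Hes5 and Nrarp. They were taken by gene symbol, each symbol matched 1 of the 35857 genes listed per library, and all 10 passed the filter for testing, a mean level of 1 TPM or more. TPM is abundance per transcript length, scaled to the same total in each library. The data were mRNA profiles of glial progenitors, cells grown from neural stem cells of mouse embryonic cerebral cortex (strain C57BL/6) and collected 24 hr after glial differentiation was induced. There were 2 libraries of Qk-/- cells (Qk_KO) and 2 of wild type cells (control). Qk encodes Quaking, an RNA-binding protein that controls splicing, stability and translation of its targets, and the design asks what its loss changes in cells on the way to glia. The labels do not say how the knockout was made or whether replicates came from different cultures. By the sex-linked genes given below, the Qk_KO replicates did not come from the same animal, and for control this is not known. The p-values rest on the spread between these libraries, pooled in part across genes, and that spread may be partly technical. The files give no read depth, and none can be recovered from TPM.

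Notch signalling runs between neighbouring cells. A Delta-like or Jagged ligand on one cell binds a Notch receptor on the next, proteases then cut the receptor, and its intracellular domain enters the nucleus, where it joins the DNA-binding protein RBPJ to turn on genes such as Hes1 and Hes5. The Hes proteins repress proneural genes, which holds cortical progenitors in the stem cell state and later favours astrocytes over neurons. Fringe enzymes such as Lfng add sugars to the receptors, which alters how well Delta-like and Jagged ligands activate them.

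Qk was low in the libraries labelled as knockout, progenitor genes were present, and 1 library stood apart. Qk fell to 36.1 and 43.7 TPM in Qk_KO replicates 1 and 2, against 208 and 215 TPM in control replicates 1 and 2 (adjusted p = 0.00708 by limma, lost without control replicate 1 at 0.0554, without control replicate 2 at 0.0772 and with no filter on low genes at 0.108). The progenitor genes Fabp7, at 2354 and 3144 TPM in Qk_KO and 3010 and 2957 TPM in control, and Sox2, at 239 and 208 TPM in Qk_KO and 234 and 195 TPM in control, were present in every library. Of the 8 radial glia markers tested, Pax6 was called higher and the glutamate transporter gene Slc1a3 was called lower. Of all genes tested, 3.24% were called. Among the 8 markers 3 had both Qk_KO values above control, 1 had both below and 4 overlapped, where 61.1% of all genes did not overlap. Pax6 was at 48.9 and 45.8 TPM in Qk_KO and 24.0 and 17.9 TPM in control (adjusted p = 0.0423 by limma). Its call was lost without any 1 library, with no filter on low genes (adjusted p = 0.139 by limma) and with no trend (0.0735). Qk_KO replicate 1 differed from the other libraries in genes outside the pathway. It held 36.7 TPM of Dlx1, a transcription factor gene of ventral forebrain, against 0.40 TPM in Qk_KO replicate 2 and 2.03 and 0.37 TPM in control. Of the 6 ventral forebrain markers tested, 3 overlapped, Dlx1 among them, and 3 had both Qk_KO values above control. None of the 6 was called, and 61.1% of all genes did not overlap. Qk_KO replicate 1 also held 35.4 TPM of the Y-linked gene Eif2s3y, which was listed at 0 in the other 3 libraries. Xist, the RNA of the inactive X chromosome, was at 0.04 TPM in it, against 62.5 TPM in Qk_KO replicate 2 and 62.2 and 57.6 TPM in control. By these genes Qk_KO replicate 1 was male and the other 3 libraries female, so the Qk_KO replicates did not come from the same animal. The part of sex in the results was not tested. The fold changes of the 10 genes are therefore also given without this library.

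Jag1 was the gene of the 10 that passed the test, falling to 46.9% of control, while the Notch targets Hes1, Hes5 and Nrarp did not pass. Notch3, Lfng, Dll1 and, by a small margin, Hes1 had both Qk_KO values above both control values without passing. Changes were tested over all 13260 genes that passed the filter, on log2(TPM + 1), with limma and Benjamini-Hochberg adjustment, and called at an adjusted p under 0.05. By this rule 1 of the 10 genes was called, 0 higher and 1 lower in Qk_KO, where 3.24% of all genes tested were called and 1.42% were called lower. At an unadjusted p under 0.05 there were 4 of the 10, against 28.4% of all genes. The groups did not overlap for 5 of the 10, 4 higher and 1 lower, against 61.1% of all genes, so by these counts the 10 genes did not stand out from the table. Their median log2 fold change was 0.15, and that of all genes tested was 0.04. Without Qk_KO replicate 1, 0 of the 10 were called (3 at an unadjusted p under 0.05 by limma).

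Levels spanned a wide range among the 10 genes. In Qk_KO the order of mean TPM was Notch1, Hes5, Lfng, Dll1, Dll3, Notch3, Nrarp, Hes1, Notch2 and Jag1, and neighbours from Dll1 to Notch3 and from Nrarp to Notch2 overlapped in their single values. In control the order was Notch1, Hes5, Lfng, Dll3, Dll1, Nrarp, Jag1, Hes1, Notch2 and Notch3, and neighbours from Dll3 to Notch2 overlapped. Notch1, Hes5 and Lfng were thus the most abundant in both groups, each separated from its neighbours. Jag1 was lowest in Qk_KO and Notch3 lowest in control.

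**Figure D1:**
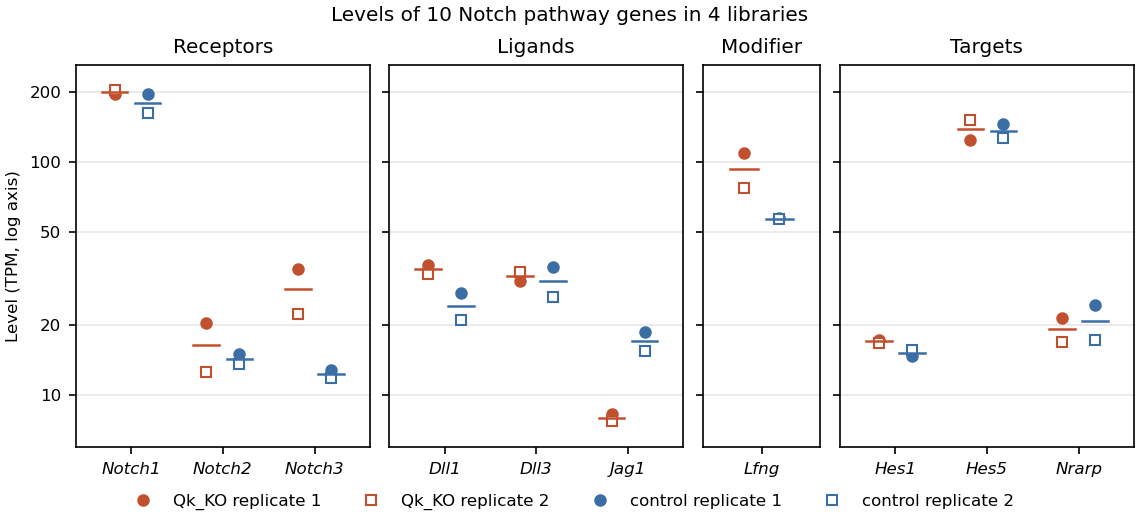
Level of each gene in each library, in TPM on a log axis, with receptors, ligands, the modifying enzyme and targets in separate panels. Filled circles are replicate 1, open squares replicate 2 and short lines the group means; Jag1 is the gene with both Qk_KO values far below control, and Hes5 the abundant gene whose groups coincide.

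Jag1 encodes Jagged1, a transmembrane ligand, and lies at chr2:137081456-137116644 on the minus strand of GRCm38. Its level was 8.28 and 7.78 TPM in Qk_KO replicates 1 and 2, and 18.8 and 15.5 TPM in control replicates 1 and 2. Both Qk_KO libraries were low and close together, and the groups were far from overlapping. The means were 8.03 ± 0.353 TPM in Qk_KO and 17.1 ± 2.28 TPM in control (SD, n = 2 each), so Jag1 stood at 46.9% of control. The log2 fold change was -1.001 (SE 0.15, 95% interval -1.37 to -0.63, adjusted p = 0.0426 by limma). The call was lost when any 1 library was left out. The log2 fold change was then -1.04 without Qk_KO replicate 1 and -0.96 without Qk_KO replicate 2. It was -0.87 without control replicate 1 and -1.13 without control replicate 2.

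Markers of some other cell types were lower in the same Qk_KO libraries as Jag1. Of the 8 microglia markers 4 could be tested. All 4 had both Qk_KO values below control, where 61.1% of all genes did not overlap. Of these markers 0 were called, and 3 had an unadjusted p under 0.05 by limma, against 28.4% of all genes. The 8 summed to 12.7 and 8.17 TPM in Qk_KO and to 25.4 and 20.2 TPM in control, with the defining marker P2ry12 at 0.04 TPM or less in every library. Pdgfra, the receptor of oligodendrocyte precursors, was at 5.37 and 12.1 TPM in Qk_KO and 53.1 and 35.8 TPM in control. The 7 oligodendrocyte lineage markers, among them the abundant Olig1 and Olig2, summed to 895 and 1092 TPM in Qk_KO and 1169 and 967 TPM in control. The 8 endothelial markers summed to 7.73 and 6.43 TPM in Qk_KO and 5.82 and 6.99 TPM in control, with Cdh5 at 0.04 TPM or less. The 7 astrocyte markers, whose summed level was 461 and 409 TPM in Qk_KO and 499 and 613 TPM in control, moved in both directions. Slc1a3 fell to 117 and 150 TPM in Qk_KO, against 338 and 435 TPM in control (adjusted p = 0.0324 by limma). Its call was lost with no filter on low genes (adjusted p = 0.139 by limma) and with no trend (0.0656). It was also lost without Qk_KO replicate 1, without control replicate 1 and without control replicate 2. The water channel gene Aqp4 rose to 29.3 and 35.1 TPM in Qk_KO, against 3.83 and 4.88 TPM in control (adjusted p = 0.0123 by limma). Its call was lost with no filter on low genes (adjusted p = 0.122 by limma), without control replicate 1 and without control replicate 2. Of the other 5, Gja1 and S100b had both Qk_KO values below control and Aldh1l1 had both above, none of these 3 called. The part of these cells in the fall of Jag1 was not tested. In bulk RNA of this kind, fewer cells of a type and less RNA per cell cannot be told apart.

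Neither Delta-like ligand of the 10 passed the test. Dll1, the ligand made by cells entering neurogenesis (chr17:15367354-15376872, minus strand), was at 36.1 and 33.2 TPM in Qk_KO and 27.4 and 21.0 TPM in control. Both Qk_KO values lay above both control values, and the log2 fold change was 0.51 (SE 0.15, 95% interval 0.12 to 0.89) at an adjusted p of 0.109 by limma (log2 fold change 0.45 without Qk_KO replicate 1, 0.69 without control replicate 1 and 0.33 without control replicate 2). Dll3, a divergent ligand that acts in the same cell to hold Notch back (chr7:28293553-28302238, minus strand), was at 30.9 and 33.9 TPM in Qk_KO and 35.5 and 26.5 TPM in control. Its groups overlapped, with a log2 fold change of 0.08 (SE 0.16, 95% interval -0.33 to 0.48, adjusted p = 0.793 by limma), which was 0.14 without Qk_KO replicate 1 and -0.13 without control replicate 2. Jag2, the other Jagged ligand, was at 2.66 and 4.56 TPM in Qk_KO and 1.68 and 1.86 TPM in control, both Qk_KO values above control (log2 fold change 0.70, adjusted p = 0.155 by limma, and 0.40 without Qk_KO replicate 2).

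Within each Qk_KO library, Jag1 made up a smaller and Dll1 a larger share of ligand transcripts than in either control library. Because TPM is per length, shares of summed TPM are shares of transcripts, and they do not depend on how a library is scaled. Of the summed TPM of Dll1, Dll3 and Jag1, the share of Jag1 was 11.0% and 10.4% in Qk_KO and 23.0% and 24.6% in control. The share of Dll1 was 47.9% and 44.4% in Qk_KO and 33.6% and 33.4% in control, while that of Dll3 was 41.1% and 45.2% in Qk_KO and 43.5% and 42.0% in control. The sums themselves overlapped, at 75.3 and 74.9 TPM in Qk_KO and 81.7 and 63.1 TPM in control. The ratio of Jag1 to Dll1 was 0.23 in both Qk_KO libraries, and 0.68 and 0.74 in control. With 2 libraries against 2, an exact permutation test of such a ratio cannot go below a two-sided p of 0.333, so none was made.

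**Figure D2:**
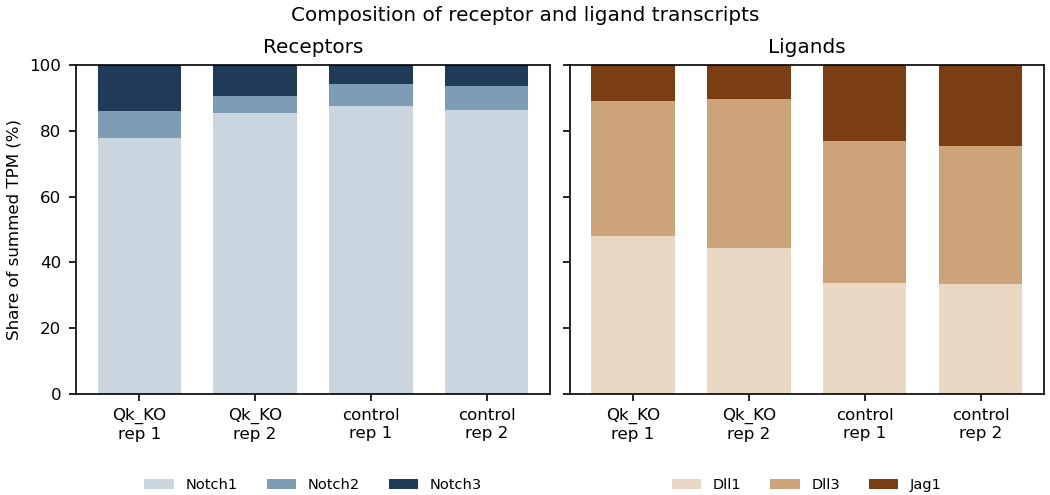
Share of summed TPM, in percent, held by each receptor (left) and each ligand (right) in each of the 4 libraries. The dark top segment on the right is Jag1, 11.0% and 10.4% in Qk_KO and 23.0% and 24.6% in control; the dark top segment on the left is Notch3, which is widest in Qk_KO replicate 1.

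Notch1 was the main receptor and its groups overlapped, whereas Notch3 had the larger difference. Notch1, the receptor that maintains cortical progenitors (chr2:26457903-26516663, minus strand), was at 195 and 203 TPM in Qk_KO and 196 and 162 TPM in control. Its log2 fold change was 0.16 (SE 0.12, 95% interval -0.14 to 0.46, adjusted p = 0.414 by limma). It was 0.19 without Qk_KO replicate 1, 0.30 without control replicate 1 and 0.02 without control replicate 2, so its size rested on single control libraries. Notch2 (chr3:98013527-98150361, plus strand), a second receptor of neural progenitors, was at 20.3 and 12.6 TPM in Qk_KO and 15.1 and 13.6 TPM in control. Its Qk_KO libraries lay on either side of control, and the log2 fold change was 0.15 (SE 0.23, 95% interval -0.43 to 0.73, adjusted p = 0.706 by limma), which turned to -0.18 without Qk_KO replicate 1.

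Notch3, best known from vascular mural cells and also made by neural progenitors, lies at chr17:32120820-32166852 on the minus strand. It was at 34.9 and 22.3 TPM in Qk_KO and 12.9 and 11.9 TPM in control. Both Qk_KO libraries were above control, and they differed from each other more than the control libraries did. The means were 28.6 ± 8.97 TPM in Qk_KO and 12.4 ± 0.700 TPM in control (SD, n = 2 each). The log2 fold change was 1.11 (SE 0.22, 95% interval 0.56 to 1.66), as large as that of Jag1, but the adjusted p was 0.0561 by limma. It was 0.80 without Qk_KO replicate 1 (adjusted p = 0.0957 by limma) and 1.42 without Qk_KO replicate 2 (0.047). The share of Notch3 in summed receptor TPM was 13.9% and 9.37% in Qk_KO and 5.76% and 6.36% in control, and that of Notch1 was 77.9% and 85.3% in Qk_KO and 87.5% and 86.4% in control.

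The 8 mural cell markers summed to 4029 and 1834 TPM in Qk_KO and 1689 and 1553 TPM in control, a sum made mostly of the contractile genes Acta2 and Tagln. Acta2 was at 3484 and 1604 TPM in Qk_KO and 1289 and 1130 TPM in control, so its highest library was also that of Notch3. Tagln was at 541 and 226 TPM in Qk_KO and 395 and 419 TPM in control. Its groups overlapped, with Qk_KO replicate 2 below both control libraries. The defining mural markers Kcnj8 and Abcc9 were at 0.07 TPM or less in every library, and Pdgfrb was at 2.57 and 3.24 TPM in Qk_KO and 3.47 and 2.74 TPM in control. Notch4, the endothelial receptor, was at 0.27 and 0.10 TPM in Qk_KO and 0.26 and 0.08 TPM in control, too low to be tested.

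Lfng encodes lunatic fringe, the glycosyltransferase that modifies Notch in the Golgi (chr5:140607320-140615545, plus strand). It was at 109 and 77.4 TPM in Qk_KO and 57.5 and 56.8 TPM in control. Both Qk_KO libraries were above control, replicate 1 more so, as with Notch3. The log2 fold change was 0.67 (SE 0.17, 95% interval 0.25 to 1.10) at an adjusted p of 0.0798 by limma. It was 0.43 without Qk_KO replicate 1 and 0.92 without Qk_KO replicate 2. The groups of its fringe relatives overlapped: Rfng, radical fringe, was at 57.9 and 56.2 TPM in Qk_KO and 62.7 and 53.2 TPM in control, and Mfng, manic fringe, was at 5.13 and 4.02 TPM in Qk_KO and 5.72 and 4.56 TPM in control. The difference between Lfng and its relatives was not tested.

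The target genes Hes1, Hes5 and Nrarp did not pass the test. Hes5, the effector most specific to Notch in neural stem cells (chr4:154960923-154962371, plus strand), was at 125 and 152 TPM in Qk_KO and 146 and 126 TPM in control. The groups coincided, with a log2 fold change of 0.02 (SE 0.13, 95% interval -0.32 to 0.35, adjusted p = 0.943 by limma) that was -0.01 with median-ratio scaling and 0.16 without Qk_KO replicate 1. On this interval the ratio of Qk_KO to control lies between 0.803 and 1.28. Hes1, the related repressor that also answers to other pathways (chr16:30064384-30067796, plus strand), was at 17.3 and 16.8 TPM in Qk_KO and 14.7 and 15.7 TPM in control. Its Qk_KO values lay just above the control values, at a log2 fold change of 0.16 (SE 0.12, 95% interval -0.15 to 0.46, adjusted p = 0.436 by limma), and 0.13 without Qk_KO replicate 1.

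Nrarp encodes a small ankyrin repeat protein that Notch induces and that feeds back on the Notch nuclear complex (chr2:25180758-25183339, plus strand). It was at 21.5 and 17.0 TPM in Qk_KO and 24.5 and 17.3 TPM in control. Replicates differed more than groups, and the log2 fold change was -0.10 (SE 0.21, 95% interval -0.62 to 0.41, adjusted p = 0.774 by limma), and -0.27 without Qk_KO replicate 1. In GENCODE M21 an antisense gene covers 79.4% of the exon bases of Nrarp, and genes on the opposite strand cover 31.8% of those of Hes5 and 20.5% of those of Dll1, while for the 3 receptors no single gene covers more than 7.5%. The strand setting of the counting is not given in the sources used here, so reads of these pairs cannot be told apart. For Jag1, Dll3, Lfng and Hes1 no other annotated exon overlaps.

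The promoters of Hes5 and Lfng are shown because both hold the core letters of the RBPJ site, through which the Notch complex acts, while the RNA levels of Hes5 and Lfng differed in how they stood between the groups. RefSeq promoters (GRCm38.p6, 250 bases before to 50 after the start) were listed for 9 of the 10 genes. TGGGAA, or TTCCCA on the opposite strand, was searched in them on both strands and is in capitals below. Both promoters run 5′ to 3′ along the plus strand, Hes5 at chr4:154960673-154960972 and Lfng at chr5:140607091-140607390.
Hes5: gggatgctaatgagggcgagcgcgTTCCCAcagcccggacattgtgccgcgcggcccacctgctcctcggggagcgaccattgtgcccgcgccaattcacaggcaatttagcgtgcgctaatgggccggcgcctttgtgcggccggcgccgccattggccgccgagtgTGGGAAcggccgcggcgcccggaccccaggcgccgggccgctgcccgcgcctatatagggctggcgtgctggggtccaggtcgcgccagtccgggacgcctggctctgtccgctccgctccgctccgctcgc
Lfng: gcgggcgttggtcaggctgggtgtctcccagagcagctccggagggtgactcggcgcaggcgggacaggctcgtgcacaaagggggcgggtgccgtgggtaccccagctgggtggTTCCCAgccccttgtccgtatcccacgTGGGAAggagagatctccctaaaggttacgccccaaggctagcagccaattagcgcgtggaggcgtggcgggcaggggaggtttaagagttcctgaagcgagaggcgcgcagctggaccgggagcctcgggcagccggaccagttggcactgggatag
Each holds 2 matches, 1 on each strand. Their first bases lie 226 and 82 bases before the start in Hes5, and 135 and 108 bases before it in Lfng. Of 32851 promoters of this length, 25.56% held at least 1 match and 3.79% at least 2. A single match is thus common, and 2, as in each promoter shown, are less so. The promoters listed for the other 7 genes held no match, and Hes1 had no promoter listed, so it was not searched. A match is a run of letters and does not show binding.

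A wider list of 56 pathway genes placed these values in context. Of the 50 that could be tested 0 rose and 1 fell, leaving 49 uncalled, and Jag1 was the gene that fell, against the 3.24% called among all genes. The median log2 fold change of the 50 was 0.09. The groups did not overlap for 18 higher and 8 lower, against 61.1% of all genes, so these counts did not stand out either. Of the other 40 genes tested 0 were called, with 10 at an unadjusted p under 0.05 by limma, against 28.4% of all genes.

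**Figure D3:**
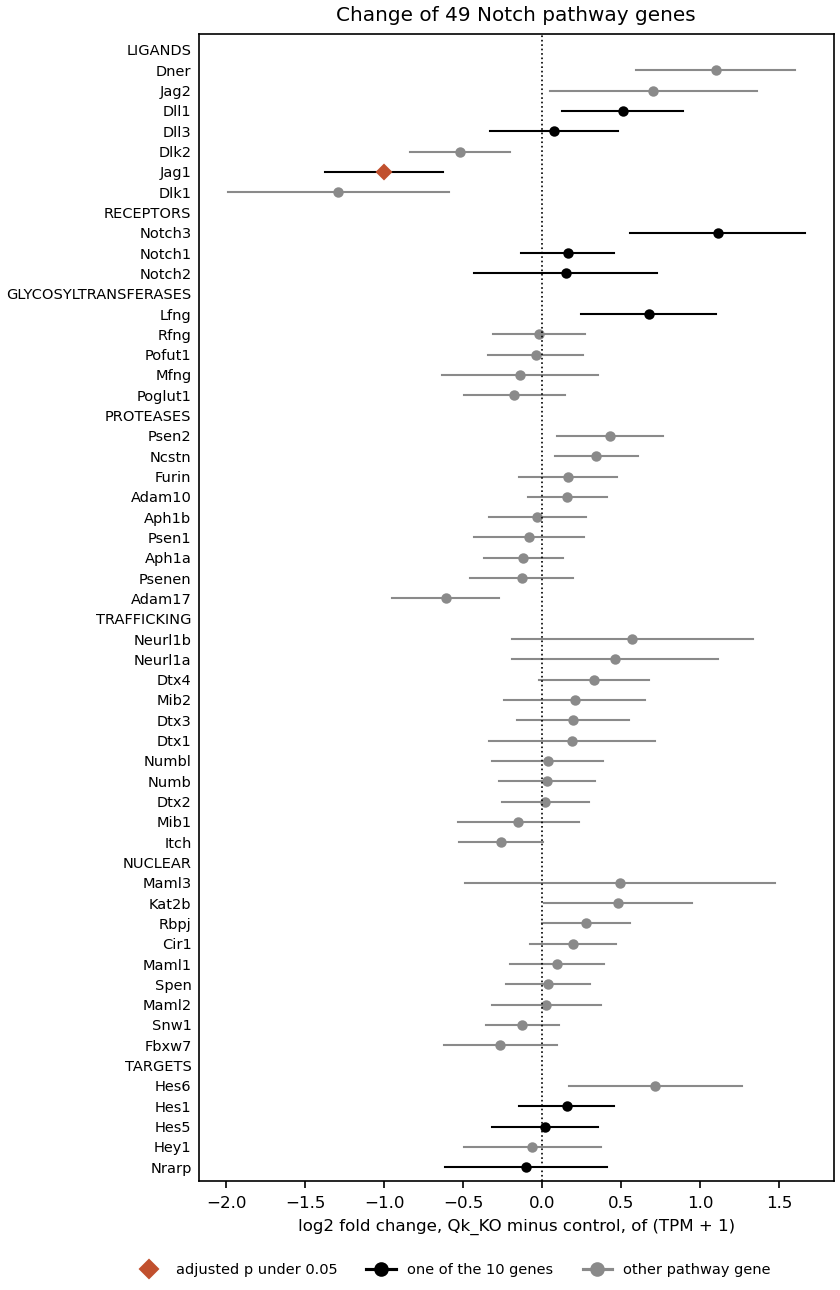
Log2 fold change of TPM + 1, Qk_KO minus control, with its 95% interval by limma, for 49 of the 50 pathway genes tested, grouped by role. The diamond marks the adjusted p under 0.05, which is Jag1 at -1.001; Dlk1, Notch3, Dner and Jag1 lie farthest from 0, and intervals of most nuclear and trafficking genes include 0.

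The largest differences outside the 10 genes were among atypical ligands, which lack the usual receptor-binding domain. Dner, a transmembrane protein with EGF repeats made by neurons, was at 229.8 and 301 TPM in Qk_KO and 144 and 104 TPM in control. Both Qk_KO values were above control, with a log2 fold change of 1.10 (SE 0.20) at an adjusted p of 0.0515 by limma (1.29 without Qk_KO replicate 1). The 7 neuron markers summed to 709 and 621 TPM in Qk_KO and 479 and 305 TPM in control. Much of these sums was Tubb3, at 512 and 383 TPM in Qk_KO and 275 and 126 TPM in control. Of the 7 neuron markers 3 had both Qk_KO values above control and 4 overlapped, where 61.1% of all genes did not overlap. Snap25 was called higher and the other 6 were not called, Tubb3 among them, where 3.24% of all genes were called. Snap25 was at 31.6 and 37.5 TPM in Qk_KO and 18.2 and 12.8 TPM in control (adjusted p = 0.0481 by limma). Its call was not followed over the other settings. The part of neurons in the difference of Dner was not tested. Dlk1, an imprinted Delta-like protein that can dampen Notch signalling, was at 49.6 and 92.7 TPM in Qk_KO and 168 and 167 TPM in control. Its log2 fold change was -1.29 (SE 0.28, adjusted p = 0.0638 by limma), and it was -0.85 without Qk_KO replicate 1 and -1.74 without Qk_KO replicate 2, where it passed (adjusted p = 0.0161). Its relative Dlk2 was at 44.5 and 49.8 TPM in Qk_KO and 62.2 and 74.0 TPM in control, both Qk_KO values below control (adjusted p = 0.0754 by limma).

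The enzymes and nuclear partners showed smaller differences. Among 9 proteases and subunits tested, 0 were called (3 at an unadjusted p under 0.05 by limma, near the 28.4% of all genes), and Adam17, a sheddase able to cut Notch, was at 31.6 and 31.0 TPM in Qk_KO and 43.2 and 54.1 TPM in control (adjusted p = 0.0667 by limma). Among the gamma-secretase subunits, Psenen was at 289 and 362 TPM in Qk_KO and 343 and 366 TPM in control, and Ncstn was at 169 and 167 TPM in Qk_KO and 142 and 123 TPM in control. Poglut1, which glucosylates Notch, was at 44.8 and 47.8 TPM in Qk_KO and 47.6 and 57.7 TPM in control. Of 11 trafficking genes 0 were called, and 0 had an unadjusted p under 0.05 by limma, with Dtx3 at 169.8 and 167 TPM in Qk_KO and 167 and 128 TPM in control, and Numbl, a relative of the Notch inhibitor Numb, at 41.3 and 52.8 TPM in Qk_KO and 44.9 and 46.2 TPM in control. Of 10 nuclear genes 0 were called (2 at an unadjusted p under 0.05 by limma). Rbpj was at 36.2 and 33.4 TPM in Qk_KO and 29.6 and 27.4 TPM in control, and the coactivator Snw1 at 95.8 and 92.7 TPM in Qk_KO and 99.7 and 106 TPM in control.

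The other Hes and Hey genes tested, and the proneural gene Neurog2, were not called either. Hey1 was at 172 and 150.1 TPM in Qk_KO and 198 and 142 TPM in control. Hes6, a family member that counteracts Hes1 and is raised in cells entering neurogenesis, was at 204 and 171 TPM in Qk_KO and 141 and 91.2 TPM in control, with a log2 fold change of 0.72 (SE 0.22) at an adjusted p of 0.110 by limma. It was 0.59 without Qk_KO replicate 1, 1.03 without control replicate 1 and 0.41 without control replicate 2. Hes7, Hey2 and Heyl stayed below 1 TPM in every library. Neurog2, the proneural factor of dorsal cortex, was at 3.48 and 1.48 TPM in Qk_KO and 7.03 and 0.74 TPM in control, so its control libraries differed more than the groups.

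The call of Jag1 and the miss of Notch3 both lay close to the threshold. In limma the adjusted p of Jag1 ran from 0.0254 to 0.239 over 14 other settings and was below the threshold in 8 of them. That of Notch3 ran from 0.0285 to 0.309 and was below it in 4, that of Lfng from 0.0494 to 0.352 in 1, and that of Dll1 never passed. The log2 fold changes of these 4 genes kept their sign in all 14 settings. Their groups do not overlap, so settings other than a rescaling could not have turned a sign.

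**Figure D4:**
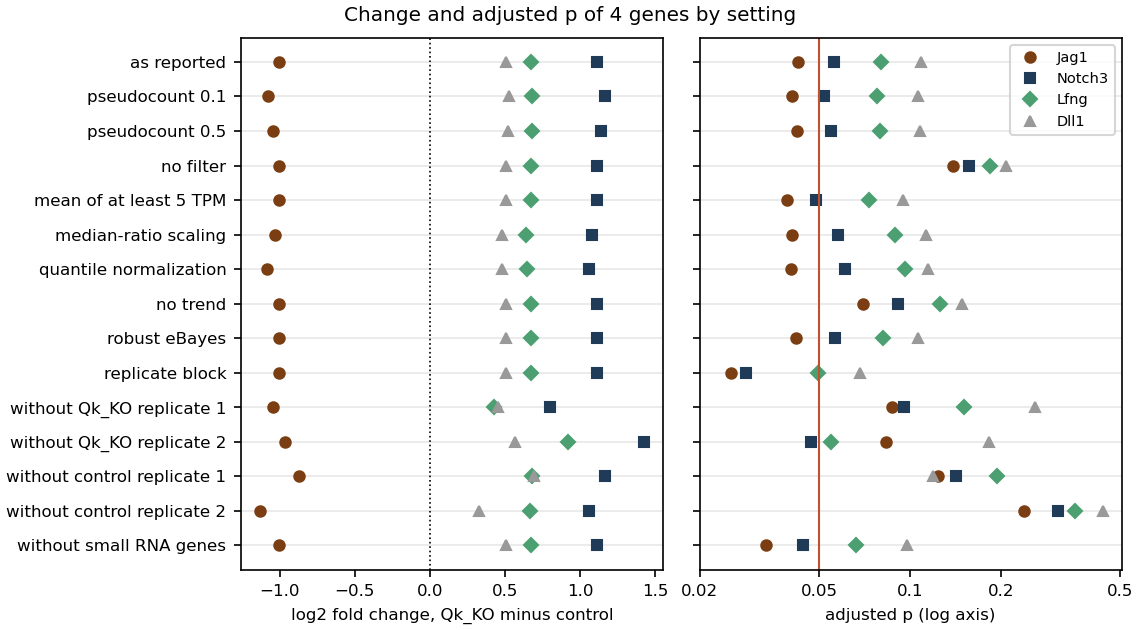
Log2 fold change (left) and adjusted p on a log axis (right) of Jag1, Notch3, Lfng and Dll1, as reported and under 14 other settings by limma, with the threshold of 0.05 as a vertical line. The changes keep their sign, while the adjusted p of Jag1 crosses the threshold when any library is left out, with no filter and with no trend.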

How the data were processed

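Poly(A) RNA of 2 Qk_KO and 2 control libraries was sequenced with an Ion Proton instrument (labels' protocols). The deposited values are TPM, 1 table per library, with Entrez number and symbol of each gene, as the authors made them. STAR 2.4.1d, RSEM 1.3.0, mm10 and GRCm38.p4 are named in the submitters' processing notes; for the annotation and the strand setting, nothing is given in the sources used here. TPM sums to a fixed total, so abundant genes that rise lower the rest, and no precision from depth can be given. Groups came from the labels. Values were taken as log2(TPM + 1), and the 13260 of 35857 genes averaging 1 TPM or more were fitted with limma 3.58.1 (R 4.3.3, eBayes with a mean-variance trend, 5.57 degrees of freedom), two-sided, with p-values adjusted over all of them by Benjamini-Hochberg and a threshold of 0.05. Intervals are limma's at 95%, unadjusted. The pseudocount makes fold changes of low genes too small. The fit was tested on simulated data. Named genes were Qk, the 10 genes, called genes of the wider list, the 2 most abundant others of each role, and Neurog2, Dlx1 and Dlx2, some of the genes so chosen being not reported here; marker genes, Eif2s3y, Jag2, Dlk2, Mfng, Adam17, Rbpj, Notch4, Hes7, Hey2 and Heyl were named after their values were seen. The 10 genes and all lists were chosen with earlier results of these data known. Gene positions, exons and 3′ UTRs came from GENCODE M21 (GRCm38), promoters from RefSeq (GRCm38.p6). Alternatives were other pseudocounts, filters, scalings and limma settings, the replicate number as a block, leaving out each library, and, chosen after seeing the data, leaving out small RNA genes by RefSeq biotype.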

Additional observations from a re-analysis of the deposited data

How the results depend on the processing

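The count of genes called moved most. Beside 430 of all genes, 1 of the 10 genes and 1 of the wider list, it was 0, 0 and 0 with no filter (4327 genes at an unadjusted p under 0.05 by limma, the only tool run), 649, 2 and 3 with the filter at 5 TPM, 41, 0 and 0 without a trend, and 803, 2 and 4 without small RNA genes. With a pseudocount of 0.1, the wider list had 2. Leaving out 1 library gave 4 to 148 of all genes, 0 to 1 of the 10 and 0 to 2 of the wider list: 60 without Qk_KO replicate 1, 148 without Qk_KO replicate 2, 10 without control replicate 1 and 4 without control replicate 2. With the replicate number as a block the counts were 1278, 3 and 7, Notch3 and Lfng joining Jag1 in the 10. Nothing shows that the numbers pair the libraries (correlation of same-numbered deviations 0.11), so this is a fit to shared numbers only. A group left with 1 library is assumed to vary like the other. At 5 TPM Neurog2, and without Qk_KO replicate 1 Dlx1, fell under the filter and gave no value. The causes were not tested.

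The sign of small changes turned with single libraries. Leaving out each in turn, log2 fold changes ran from -0.18 to 0.48 for Notch2, -0.13 to 0.28 for Dll3, -0.12 to 0.16 for Hes5 (also -0.08, and -0.014 with median-ratio scaling), -0.34 to 0.14 for Nrarp (also 0.06), -0.14 to 0.10 for Rfng (also 0.0028), -0.29 to 0.031 for Psenen, -0.14 to 0.21 for Numbl, -0.30 to 0.17 for Hey1 (also 0.03), -1.27 to 0.94 for Neurog2 (also 0.26) and -0.28 to 0.0041 for Mfng. Dlx2, whose change of 2.06 was not small, ran from -0.36 without Qk_KO replicate 1 to 4.48 without Qk_KO replicate 2, where it passed (adjusted p = 0.00696 by limma). With the block, Hes6 passed (adjusted p = 0.0343 by limma). Scaling moved the median of all genes to 0.01 and -0.01, from 0.04. The called genes were 242 higher and 188 lower as deposited. They were 236 and 217 with median-ratio scaling and 201 and 188 with quantile normalization, a more even split.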

Other observations

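The letters that Quaking is known to prefer in RNA, ACTAAC or ACTAAT in DNA letters, were searched in the 3′ UTRs of the 10 genes, and 1 of the 10 held them. In the longest annotated 3′ UTR of each gene, read on the transcript strand only, Jag1 (1568 bases) held none, nor did Notch3 (1000 bases) or Lfng (1072 bases). Among 3′ UTRs of 0.8 to 1.2 times the length of that of Jag1, 39.7% held at least 1, and the shares for the lengths of Notch3 and Lfng were 28.7% and 30.2%. Of the 10 genes, Notch1 held 1 match in 1628 bases, where 40.9% of 3′ UTRs of like length held at least 1. The Notch1 match is shown because it is the single one in the family, at chr2:26457925-26457954 on the minus strand of GRCm38, with the letters searched in capitals.
Notch1: ttaACTAATttgcaataaaaatgatactga
Quaking is also known to bind introns, which were not searched, and a match or its absence says nothing of binding.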
